A study of Mus musculus with 16 samples.

Results

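A set of 10 genes whose proteins fill the granules and cytosol of neutrophils were followed across 4 genotypes of newborn mouse skull bone. The genes were Mpo, Elane, Prtn3 and Ctsg, whose products are packed into primary granules, and Camp, Ltf, Ngp, Lcn2, S100a8 and S100a9, which are made later in neutrophil maturation. They were chosen by name, with earlier results of these data known. Every probe annotated to them was taken: 13 probes of 10 genes, of 25697 probes on the array. One main probe per gene, the one with the highest mean, entered the test across 9918 genes, and all 10 genes passed the filter on dim probes.

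Calvaria, the flat bones of the skull vault, were taken from male mice on postnatal day 7. The groups were A-KO:R-Het mice (Axin2-/-:Runx2+/-, n = 4), A-KO mice (Axin2-/-, n = 3), R-Het mice (Runx2+/-, n = 4) and wild-type WT mice (n = 4), each array holding total RNA of 1 mouse. One more A-KO array is marked as damaged in its label and was left out of the 15 arrays used. Axin2 encodes a scaffold that restrains canonical Wnt signalling, and Runx2 encodes a transcription factor required for osteoblast formation. The labels name no Cre line.

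Neutrophils form in the bone marrow from promyelocytes, which make the serine proteases and myeloperoxidase of the primary (azurophil) granules. Myelocytes and metamyelocytes then switch these genes off and make the proteins of secondary and tertiary granules, so the primary set marks early cells and the later set marks maturing cells. The skull vault holds marrow spaces between its bone plates, and bulk RNA of calvaria carries both bone and marrow transcripts.

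The arrays were single-colour Illumina bead arrays, spread over 2 chips with 8 arrays each, and all 4 genotypes were on both chips. The median normalised intensity per array was 92.9 to 95.5. The bone matrix gene Col1a1 stood at 15906 to 23948, as in bone, while the neutrophil receptor probes of Cxcr2 and Itgam lay below the array median on all 15 arrays. Csf3r, the receptor for the granulocyte growth factor, lay above the median on 14 of 15 arrays. Of the other neutrophil surface and receptor genes with a probe, Cxcr4, Fpr2, Itgb2, Retnlg, Trem3 and Il1b did so on all 15. Clec4d did so on 14 and Trem1 on 10. Axin2 itself averaged 7.49 ± 0.17 log2 units in A-KO:R-Het, 7.48 ± 0.20 in A-KO, 7.97 ± 0.09 in R-Het and 7.67 ± 0.20 in WT calvaria (SD, n = 4, 3, 4 and 4). Whether its probe falls in the deleted stretch is not known here, so it does not check the labels. Runx2 was not analysed here.

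The promoters of the members are shown as a description, and whether they bear on the levels of these genes was not tested. All 10 members matched an entry of the RefSeq promoter table (mouse GRCm38.p6, 250 bases before to 50 bases after each start). A set of 3 motifs was looked for on both strands, with spellings chosen with these promoters in view: GAGGAA for PU.1, TTGCNNAA for C/EBP factors and AACNGNC for MYB, the factors known to act at granulocyte genes. GAGGAA stood in 4 of 4 primary and 3 of 6 later promoters and in 23.3% of all 32851 promoters. TTGCNNAA stood in 0 of 4 primary and 4 of 6 later promoters (Ltf, Ngp, Lcn2 and S100a9), and in 9.56% of all. AACNGNC stood in 3 of 4 primary promoters (Mpo, Elane and Ctsg), in 1 of 6 later promoters (Ngp) and in 27.7% of all. Because the spellings were chosen with these promoters in view, the counts cannot be weighed against the shares of all promoters or between the sets. A match is a stretch of letters and does not show that a factor binds there. Below are the stretches of Mpo (chr11:87793534-87793653, plus strand), Elane (chr10:79886192-79886311, plus strand), Prtn3 (chr10:79879547-79879666, plus strand), Ctsg (chr14:56102705-56102824, minus strand), Ltf (chr9:111019122-111019241, plus strand) and Ngp (chr9:110419658-110419807, plus strand), written 5′ to 3′ on the gene's strand, with matches to any of the motifs in capitals (a match on the other strand appears as its reverse complement).
Mpo: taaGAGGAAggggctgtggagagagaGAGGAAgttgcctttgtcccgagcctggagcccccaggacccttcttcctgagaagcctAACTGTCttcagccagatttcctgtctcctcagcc
Elane: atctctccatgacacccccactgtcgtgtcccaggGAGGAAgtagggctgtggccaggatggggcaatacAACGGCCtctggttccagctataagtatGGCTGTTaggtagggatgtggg
Prtn3: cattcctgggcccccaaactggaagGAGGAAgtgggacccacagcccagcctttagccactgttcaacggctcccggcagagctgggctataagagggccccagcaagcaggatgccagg
Ctsg: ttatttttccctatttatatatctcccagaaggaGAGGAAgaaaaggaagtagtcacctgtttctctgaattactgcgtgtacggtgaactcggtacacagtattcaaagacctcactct
Ltf: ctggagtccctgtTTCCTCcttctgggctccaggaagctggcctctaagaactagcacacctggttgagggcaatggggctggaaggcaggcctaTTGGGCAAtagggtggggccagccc
Ngp: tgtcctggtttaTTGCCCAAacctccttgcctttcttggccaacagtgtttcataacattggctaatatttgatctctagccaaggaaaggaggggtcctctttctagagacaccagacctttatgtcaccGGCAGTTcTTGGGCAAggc
In Elane and Prtn3, adjacent genes on chromosome 10 with 0 protein-coding genes between them, the first base of GAGGAA lay at -85 and -95 from the start. In Mpo the same letters stood at -247 and -224, and in Ctsg at -216. The C/EBP letters stood at -75 in Ltf and at -138 and -11 in Ngp. Camp, Ngp and Ltf lie on one stretch of chromosome 9, with 8 protein-coding genes between Camp and Ngp and 20 between Ngp and Ltf. S100a8 and S100a9 are neighbours on chromosome 3. Mpo lies on chromosome 11, as does the targeted gene Axin2, with 424 protein-coding genes between them. Whether this linkage bears on Mpo was not tested.

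Intensities of the primary granule genes were lowest on Axin2-null arrays, with wide scatter among mice of one genotype. Mpo, which makes hypochlorous acid from hydrogen peroxide and chloride, had intensities of 505, 135, 210.0 and 822 in A-KO:R-Het, 249, 154 and 424 in A-KO, 867, 554, 769 and 697 in R-Het, and 826, 826, 682 and 525 in WT calvaria (replicates in order, the damaged A-KO replicate 2 left out). All 3 A-KO arrays lay below all 4 WT arrays, whereas A-KO:R-Het replicate 4 lay inside the WT range. Mpo averaged 8.36 ± 1.18 log2 units in A-KO:R-Het, 7.99 ± 0.73 in A-KO, 9.48 ± 0.27 in R-Het and 9.46 ± 0.31 in WT (SD). The spread was thus widest in A-KO:R-Het, where replicates 2 and 3 were low and replicate 4 was high. In a limma fit over all 9918 genes, Mpo differed from WT by -1.47 ± 0.47 log2 units in A-KO (SE, adjusted p = 0.185) and by -1.10 ± 0.43 in A-KO:R-Het (adjusted p = 0.253). Neither passed the threshold of 0.05.

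Ctsg encodes cathepsin G, a serine protease of the same granules. Its intensities were 134, 80.2, 107 and 236 in A-KO:R-Het, 97.5, 67.5 and 159 in A-KO, 228, 161, 164 and 238 in R-Het, and 285, 247, 175 and 196 in WT. As with Mpo, the A-KO arrays all lay under the WT arrays, and A-KO:R-Het replicate 4 stood with the WT arrays. The difference from WT was -1.13 ± 0.32 log2 units in A-KO (limma adjusted p = 0.136) and -0.79 ± 0.30 in A-KO:R-Het (adjusted p = 0.223).

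Prtn3 encodes proteinase 3, a protease closely related to elastase. Its intensities were 165, 101, 102 and 265 in A-KO:R-Het, 115, 88.7 and 185 in A-KO, 265, 153, 226 and 214 in R-Het, and 288, 234, 222 and 168 in WT. A-KO replicate 4 lay above the lowest WT array, so the groups overlapped. Its difference from WT was -0.86 ± 0.31 log2 units in A-KO (limma adjusted p = 0.258) and -0.62 ± 0.29 in A-KO:R-Het (adjusted p = 0.356).

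Elane, neutrophil elastase, had intensities of 163, 90.1, 88.1 and 215 in A-KO:R-Het, 108, 104 and 154 in A-KO, 223, 122, 183 and 184 in R-Het, and 199.9, 212, 204 and 138 in WT. WT replicate 4 stood apart below the other WT arrays, and A-KO replicate 4 lay above it. The difference from WT was -0.63 ± 0.28 log2 units in A-KO (limma adjusted p = 0.371) and -0.52 ± 0.26 in A-KO:R-Het (adjusted p = 0.400). Elane, Prtn3 and Ctsg were dim, above the array median on 13, 14 and 13 of 15 arrays.

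**Figure D1:**
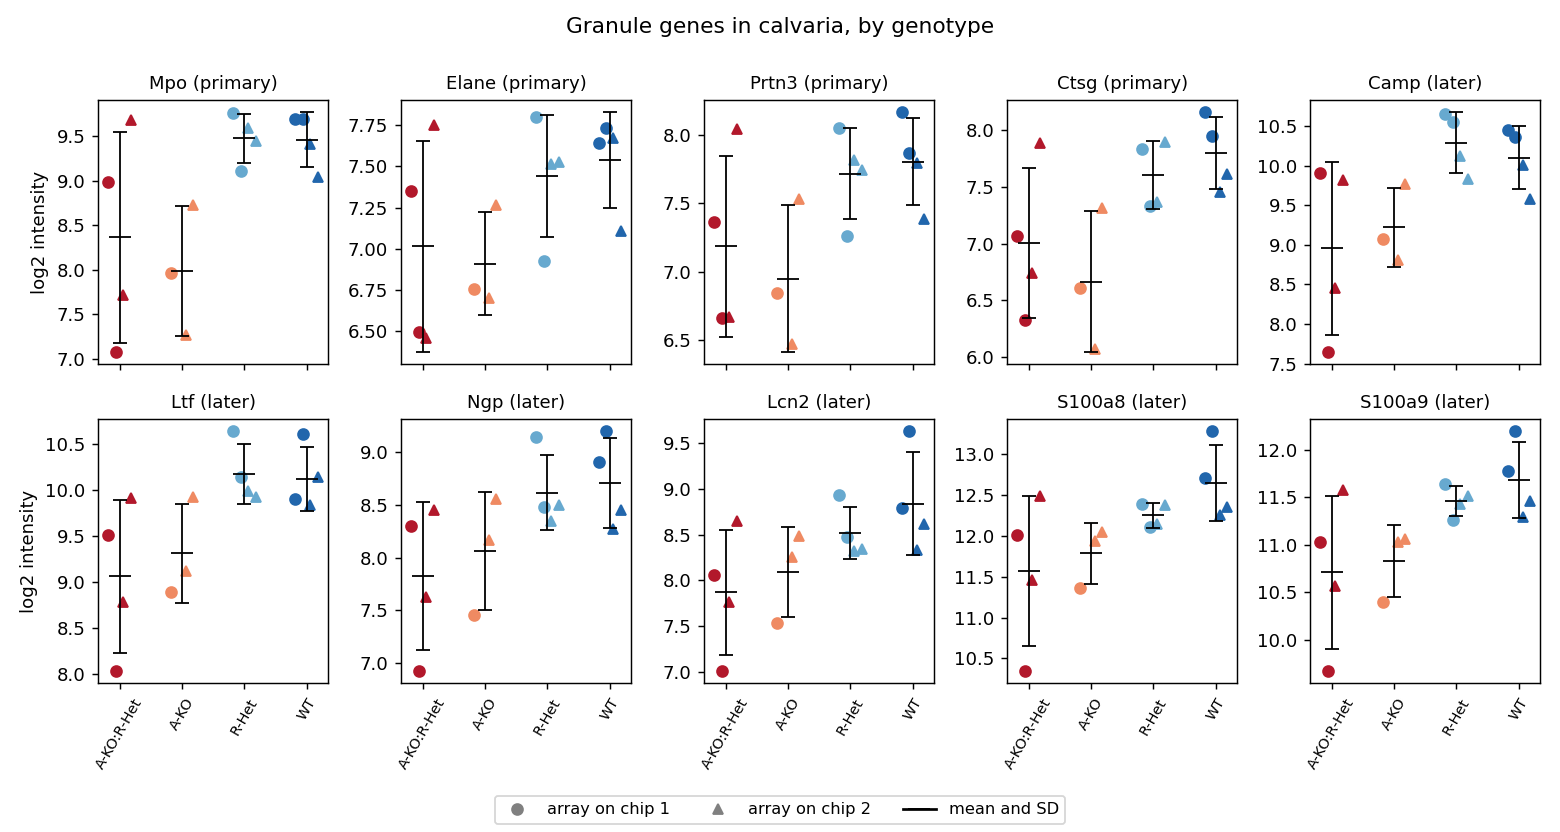
Normalised intensity (log2 scale) of the 10 granule genes on each of the 15 arrays, by genotype, with group means. For Mpo, the A-KO arrays sit between 154 and 424, all below the WT arrays at 525 to 826, and A-KO:R-Het arrays spread from 135 to 822.

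Camp encodes the cathelicidin precursor, an antimicrobial peptide of secondary granules, and had intensities of 958, 200.0, 351 and 899 in A-KO:R-Het, 541, 447 and 874 in A-KO, 1611, 1500.0, 1117 and 908 in R-Het, and 1393, 1319, 1029 and 763 in WT. The A-KO:R-Het and WT groups overlapped here through A-KO:R-Het replicates 1 and 4 and WT replicate 4. Its difference from WT was -1.14 ± 0.40 log2 units in A-KO:R-Het (limma adjusted p = 0.191) and -0.88 ± 0.43 in A-KO (adjusted p = 0.416).

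Ltf encodes lactoferrin, the iron-binding protein of secondary granules. Its intensities were 731, 262, 441 and 965 in A-KO:R-Het, 476, 558 and 967 in A-KO, 1589.5, 1129, 1011 and 967 in R-Het, and 956, 1556, 914 and 1123 in WT. All A-KO:R-Het arrays lay below all R-Het arrays, by a narrow margin at the closest pair, while both Axin2-null groups overlapped WT. The difference from WT was -1.06 ± 0.33 log2 units in A-KO:R-Het (limma adjusted p = 0.128) and -0.81 ± 0.36 in A-KO (adjusted p = 0.359).

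Ngp, a cystatin-related protein of neutrophil granules, had intensities of 316, 122, 197 and 349 in A-KO:R-Het, 176, 287 and 377 in A-KO, 564, 357, 325 and 362 in R-Het, and 480.1, 587, 308 and 349.7 in WT. Lcn2, lipocalin 2, which captures bacterial siderophores, had 266, 129, 218 and 401 in A-KO:R-Het, 186, 305 and 359.7 in A-KO, 488, 355, 321 and 324 in R-Het, and 443, 793, 321 and 391 in WT. In both genes A-KO:R-Het replicate 4 and A-KO replicate 4 lay within the WT range. Against WT, Ngp differed by -0.88 ± 0.31 log2 units in A-KO:R-Het (limma adjusted p = 0.198) and by -0.65 ± 0.34 in A-KO (adjusted p = 0.446). Lcn2 differed by -0.97 ± 0.32 in A-KO:R-Het (adjusted p = 0.148) and by -0.75 ± 0.34 in A-KO (adjusted p = 0.378, same fit).

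S100a8 and S100a9 encode the partners of calprotectin, a calcium- and zinc-binding complex of the neutrophil cytosol that monocytes also make. S100a8 had intensities of 4112, 1299.8, 2813 and 5729 in A-KO:R-Het, 2637, 3936 and 4243 in A-KO, 5379, 4415, 4515 and 5319.6 in R-Het, and 6714, 9974, 4908 and 5229.6 in WT. S100a9 had 2085, 816, 1518 and 3058 in A-KO:R-Het, 1351, 2091 and 2142 in A-KO, 3193, 2460.5, 2760.1 and 2919 in R-Het, and 3519, 4698, 2515 and 2823 in WT. For both, all A-KO arrays lay below all WT arrays, and only A-KO:R-Het replicate 4 among the arrays of its group reached the WT range. S100a8 differed from WT by -0.87 ± 0.37 log2 units in A-KO (limma adjusted p = 0.341) and by -1.08 ± 0.34 in A-KO:R-Het (adjusted p = 0.132). S100a9 differed by -0.85 ± 0.33 in A-KO (adjusted p = 0.285) and by -0.97 ± 0.30 in A-KO:R-Het (adjusted p = 0.127).

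Across the 10 genes, 0 passed the limma adjusted threshold in A-KO against WT, where 0.313% of all genes did, and 0 in A-KO:R-Het against WT, where 1.89% did. At an unadjusted p below 0.05, 8 of the 10 were lower in A-KO than in WT (4 primary and 4 later), against 5.6% of all genes, and 9 of the 10 were lower in A-KO:R-Het against WT (3 primary and 6 later, Elane being the exception), against 6.52% of all genes. For 4 genes, Mpo, Ctsg, S100a8 and S100a9, the A-KO arrays lay wholly below the WT arrays, against 6.32% of all genes. None did in A-KO:R-Het, against 4.08% of all genes. These and later counts of members only describe the set. The 10 genes were chosen with earlier results of these data known and varied together, so they are not 10 separate results. The median difference over the 10 genes was -0.97 log2 units in A-KO:R-Het and -0.86 in A-KO, while the median over all genes in A-KO against WT was 0.01. With the damaged array counted among the A-KO samples, the median for A-KO was -0.28 and 0 members were lower at an unadjusted p below 0.05, against 4.32% of all genes in that fit. That array had Mpo at 1872 and Camp at 3217, above every other array.

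Single mice also changed the size of some of the differences from WT. Without A-KO:R-Het replicate 2, the A-KO:R-Het differences were -0.67 log2 units for Mpo, -0.71 for Camp, -0.58 for Ngp, -0.67 for S100a8 and -0.63 for S100a9, and without replicate 3 that of Elane was -0.34. Without A-KO replicate 1, the A-KO differences were -0.34 for Ngp and -0.47 for Lcn2, and without WT replicate 2 that of Lcn2 was -0.48. These were the values that moved by over 1.5 times when 1 array was left out, and 0 of them had passed the adjusted threshold.

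Each array could be placed by the number of granule genes below the lowest WT array. Replicates 1 to 4 of A-KO:R-Het had 7, 10, 10 and 0 such genes of 10. The A-KO replicates 1, 3 and 4 had 10, 10 and 4, and the R-Het replicates 1 to 4 had 0, 5, 3 and 0. Low values of the whole set therefore came together on single arrays, and A-KO:R-Het replicate 4 stood with the WT mice throughout.

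**Figure D2:**
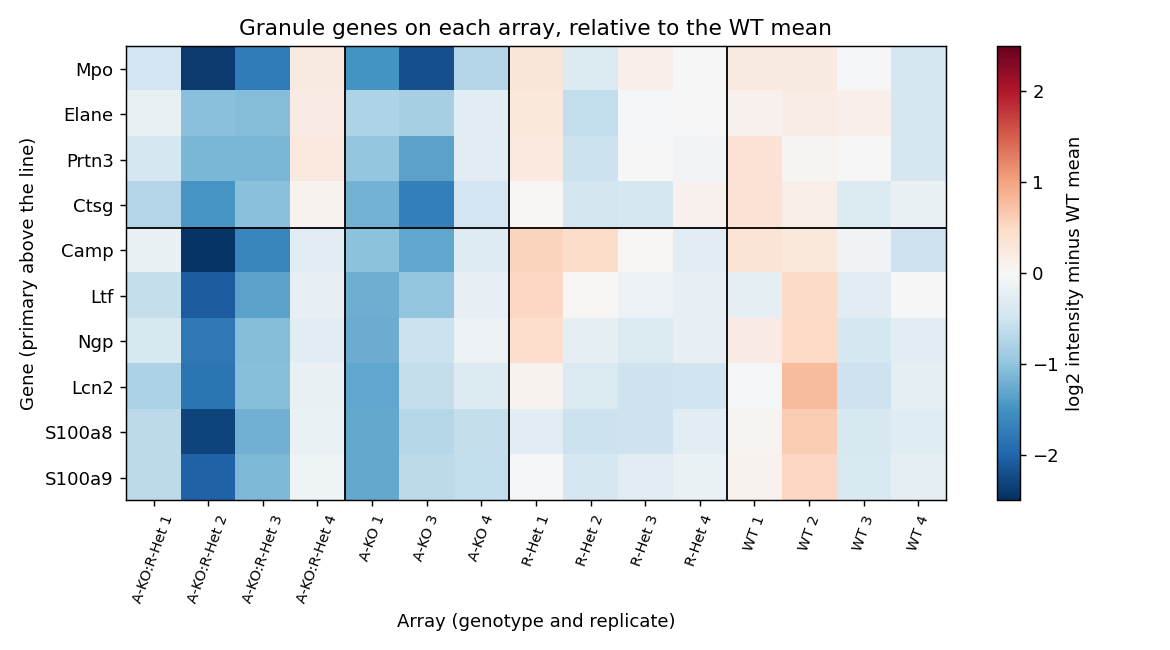
Difference of each of the 10 granule genes (rows) from its WT mean on each of the 15 arrays (columns), in log2 units. A-KO:R-Het replicates 2 and 3 and A-KO replicates 1 and 3 are below the lowest WT array in 10 of 10 genes, and A-KO:R-Het replicate 4 in 0.

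Averaging the loss of Axin2 over both Runx2 genotypes gave smaller errors than the comparisons of single genotypes. All comparisons came from the same fit of 15 arrays. Mpo differed by -1.29 ± 0.32 log2 units between Axin2-null calvaria and calvaria with Axin2 (2.45-fold lower in the Axin2-null, 95% interval -1.97 to -0.62, limma adjusted p = 0.0777). Camp differed by -1.11 ± 0.30 (limma adjusted p = 0.100), Ltf by -0.96 ± 0.24 (adjusted p = 0.0821) and Ctsg by -0.86 ± 0.22 (adjusted p = 0.0821). The other 6 differed by -0.80 (S100a9) to -0.53 (Elane), with adjusted p of 0.114 for S100a9 and 0.240 for Elane. All 10 were lower at an unadjusted p below 0.05, against 6.44% of all genes, but 0 passed the adjusted threshold, against 0.645% of all genes. Here too the 10 genes varied together and had been chosen with earlier results known. Primary and later genes had near-equal medians, -0.78 and -0.79, against 0.01 for all genes. The primary genes Elane, Prtn3 and Ctsg were dim, with lowest intensities of 88.1, 88.7 and 67.5. Whether their differences were compressed was not tested, so near-equal medians do not show an equal fall.

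**Figure D3:**
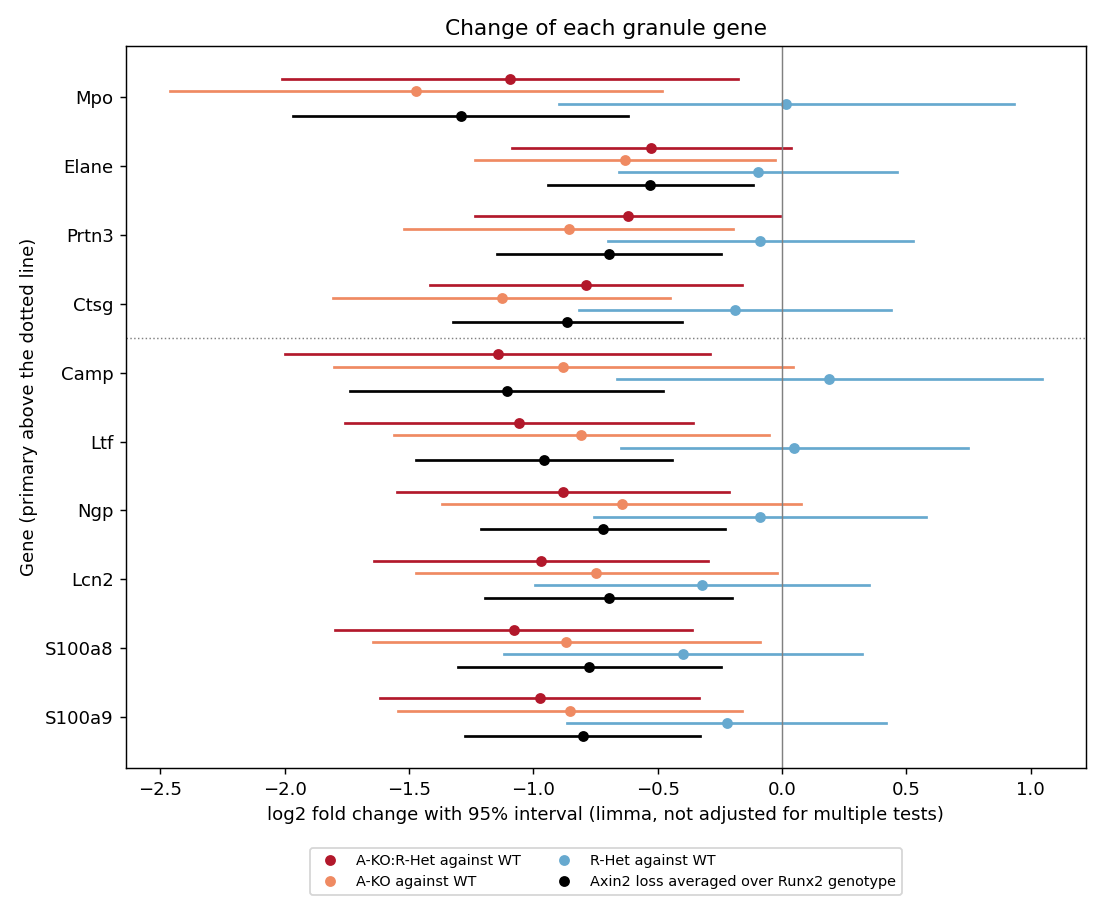
Log2 difference with 95% interval for each granule gene in the limma fit, for the comparisons of A-KO and A-KO:R-Het with WT, the averaged loss of Axin2 and R-Het with WT. Intervals of the averaged loss lie below 0 for all 10 genes, from -1.29 for Mpo to -0.53 for Elane.

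The size of this averaged difference and the genes called varied with the mouse left out and between the chips. The chips held different mice, so chip and mouse cannot be told apart here. With the chip as a block, the median over the 10 genes was -0.80 log2 units, against -0.79 in the main fit. Without A-KO:R-Het replicate 4, 4 of the 10 genes passed the adjusted threshold (Mpo -1.51, Ctsg -1.01, Ltf -1.10 and S100a9 -0.95 log2 units), against 0.477% of all genes in that fit. Without A-KO:R-Het replicate 1, 3 passed (Mpo -1.40, Camp -1.27 and Ltf -1.03), against 2.02% of all genes. Within chip 1 the median over the 10 genes was -1.38 log2 units and within chip 2 it was -0.46, with all 10 genes lower on both chips. Within chip 2, 0 of the 10 were lower at an unadjusted p below 0.05, against 4.88% of all genes in that fit. Chip 1 held 1 of the 3 A-KO arrays used, so no such count is given for it. With the damaged array kept, the median was -0.50 and 1 of 10 genes was lower at an unadjusted p below 0.05, against 4.58% of all genes in that fit. In bulk tissue, fewer neutrophil-lineage cells and less RNA of these genes per cell cannot be told apart.

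Loss of one Runx2 allele alone moved none of the 10 genes past a threshold. In R-Het against WT the differences ran from -0.40 log2 units for S100a8 (95% interval -1.12 to 0.32) to 0.19 for Camp, and for Mpo the interval was -0.90 to 0.94. No member had an unadjusted p below 0.05, against 9.24% of all genes, or an adjusted p below it, against 0.0504%. For Mpo, Camp, Lcn2 and S100a8 the intervals leave differences near 1 log2 unit possible. The narrowest, that of Elane, ran from -0.66 to 0.46. In the average over Axin2 genotypes, too, 0 members were called at the adjusted threshold (1.63% of all genes) or at the unadjusted one (12.6%).

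Within the Axin2-null mice, the primary and later sets took opposite signs when one Runx2 allele was also missing, but the size of the differences was small beside their errors. In A-KO:R-Het against A-KO, the 4 primary genes were 0.11 to 0.38 log2 units higher and the 6 later genes lay between -0.26 and -0.12. None had an unadjusted p below 0.05, against 10.8% of all genes, and none passed the adjusted threshold, against 0.555%. The interaction of both losses ran from 0.53 ± 0.43 log2 units for Ctsg to -0.45 ± 0.59 for Camp. It called 0 members at the unadjusted p (6.16% of all genes) and 0 at the adjusted p in limma (0% of all genes).

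Against R-Het mice, the A-KO:R-Het mice showed differences of -1.33 log2 units for Camp to -0.43 for Elane. Of the 10 genes, 5 were lower, 1 primary and 4 later, at an unadjusted p below 0.05, against 3.09% of all genes, and 0 at the adjusted threshold, where limma called 0% of all genes. Ltf was the 1 gene whose A-KO:R-Het and R-Het arrays did not overlap, against 1.29% of all genes.

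The balance of primary to later genes was compared array by array, as the mean log2 deviation of each set from its WT mean. On A-KO:R-Het replicates 1 to 4 the primary set stood at -0.46, -1.51, -1.25 and 0.19 and the later set at -0.55, -2.08, -1.24 and -0.20. On A-KO replicates 1, 3 and 4 the primary set stood at -1.11, -1.52 and -0.44 and the later set at -1.23, -0.80 and -0.37. Both sets were low on the same arrays; the later set was the lower one on A-KO:R-Het replicate 2 and the primary set on A-KO replicate 3. The primary minus later difference averaged 0.26 ± 0.27 in A-KO:R-Het, -0.22 ± 0.44 in A-KO and 0.04 ± 0.26 in R-Het, with an SD of 0.30 in WT, so the group differences were of the size of the spread between mice. The difference of the medians in the averaged loss of Axin2 was 0.01, with 0.37 within chip 1 and -0.21 within chip 2. The dim primary probes of Elane, Prtn3 and Ctsg limit this comparison too, as their compression was not tested.

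**Figure D4:**
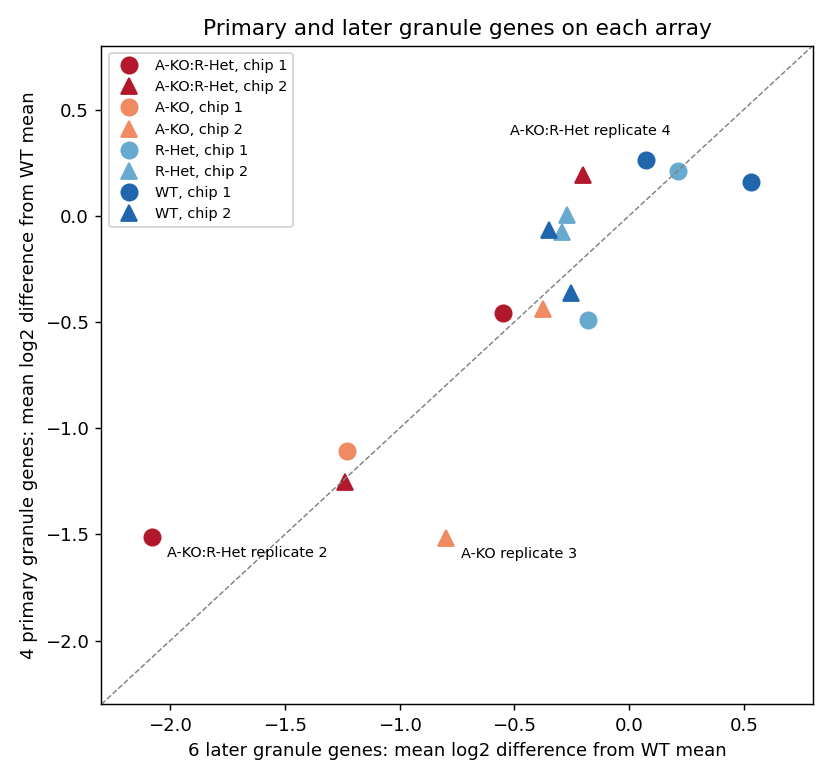
Mean log2 deviation from the WT mean of the 4 primary genes (y axis) against that of the 6 later genes (x axis), 1 point per array. Low arrays are low in both sets, with A-KO:R-Het replicate 2 at -1.51 and -2.08 and A-KO replicate 3 at -1.52 and -0.80.

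Genes of one set followed each other between mice of the same genotype. After removing each genotype's mean, the pairs of primary genes had a median Pearson r of 0.906 (0.792 to 0.944) over 15 arrays, and the pairs of later genes had 0.913 (0.731 to 0.992). The highest was the pair S100a8 and S100a9. Pairs across the sets had a median of 0.733 (0.608 to 0.894). These values describe arrays that share RNA, chip and normalisation, and no test is attached to them.

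The genes whose within-genotype pattern was most like that of the primary set were Chil3, a chitinase-like protein of neutrophils and macrophages in mice (mean r = 0.831), followed by Trpc6, Cmtm5, Kif21a, Scrg1, Kif15, Styxl1, P3h2, Tbrg1 and Gadd45a, the last at 0.749. For the later set they were Cstdc4 (0.870), Pglyrp1 (0.865), Pdcd6ip, Scrg1, Ifitm6, Stfa2, Stfa1, Dusp3, Dennd5b and Insig1 (0.818). Of the genes named for the later set, Pglyrp1, Stfa1 and the related Stfa2 are known from mouse neutrophils. Pglyrp1, a peptidoglycan-binding granule protein, fell by 0.69 log2 units in the averaged loss of Axin2 (limma adjusted p = 0.0319).

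Other genes of granulocyte formation were read from lists chosen with earlier results known. Of 5 tested genes in the list of other promyelocyte genes, 1 was called in the averaged loss of Axin2: Srgn, the core of the granule proteoglycan serglycin, fell by 0.49 ± 0.08 log2 units (limma adjusted p = 0.0133), and the list's median was -0.14. Only 3 of the 5 were lower. The highest, Ctsc, differed by 1.23 log2 units upward and was not called. Of 13 other later granule genes, Pglyrp1 was the 1 called, with a median of -0.20. None of 9 tested surface and receptor genes was called, with a median of -0.29. Of these, 8 were lower, and the differences ran from -0.87 to 0.03. Csf3r differed by -0.13 and the chemokine receptor gene Cxcr4 by -0.38. The median over all genes was 0.01.

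Among transcription factors and niche genes, Irf8, which steers progenitors away from the neutrophil path in mice, fell by 0.35 ± 0.08 log2 units (limma adjusted p = 0.0477), the 1 called of 4. Of 8 growth factor and niche genes, 1 was called. This was Cxcl12, the chemokine of marrow stroma that holds neutrophils and B cell precursors through Cxcr4, and it fell by 0.60 ± 0.07 log2 units (limma adjusted p = 0.000818). Csf3, the granulocyte growth factor, differed by 0.04. In A-KO against WT, Cxcl12 fell by 0.86 ± 0.10 (limma adjusted p = 0.00125) and Srgn by 0.58 ± 0.12 (adjusted p = 0.0491). In A-KO:R-Het against WT, Cxcl12 fell by 0.48 ± 0.10 (limma adjusted p = 0.0182) and Cxcr4 by 0.55 ± 0.13 (adjusted p = 0.0435).

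The calls for Cxcl12 and Srgn in the averaged loss passed the threshold with each of the 15 arrays left out in turn. Pglyrp1 passed in 7 of these 15 fits (highest adjusted p = 0.118 in limma) and Irf8 in 2 (highest 0.121). With the chip as a block Irf8 had a limma adjusted p of 0.0556 and no longer passed. In the single comparisons with WT, Cxcr4 in A-KO:R-Het passed in 6 of 15, Srgn in A-KO in 5 of 15, and Cxcl12 in A-KO:R-Het in 11 of 15 and in A-KO in 15 of 15. With the damaged array kept, none of these genes passed in the averaged loss, with limma adjusted p of 0.113 (Irf8), 0.171 (Srgn), 0.197 (Cxcl12) and 0.383 (Pglyrp1).

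Marker lists of other blood lineages were read in the same fit. All 6 tested B cell genes were lower in the averaged loss of Axin2, with a list median of -0.77, and 4 were called. Vpreb1, part of the surrogate light chain of precursor B cells, fell by 1.00 ± 0.14 log2 units (limma adjusted p = 0.00494), and Vpreb3, Cd79a and Cd79b by 0.95, 0.61 and 0.94. The 5 tested erythroid genes had a median of -0.56, with 0 called; Slc4a1, the red cell anion exchanger, differed by -1.94 and Alas2, which starts haem synthesis, by -0.99. The eosinophil gene Prg2 fell by 0.93 ± 0.18 (limma adjusted p = 0.0307), 1 of 2 tested. With single arrays left out, Vpreb1 and Cd79b passed in 15 of 15 fits, Vpreb3 in 14, Cd79a in 12 and Prg2 in 7, and with the damaged array kept none of the 5 passed. The 7 tested mast cell genes had a median of -0.43 and the 5 megakaryocyte genes -0.14, with 0 called in each. Monocyte and macrophage genes had a median of -0.01 over 7 tested, osteoclast genes -0.11 and osteoblast genes -0.05, with 0 called in each. The 9 muscle genes had a median of -0.34 with 0 called, and the 6 cell cycle genes had 0.21 with 0 called.

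By array, the mean erythroid level relative to the 15-array mean was -1.11 to 0.69 in A-KO:R-Het, -0.98 to -0.48 in A-KO, 0.01 to 0.63 in R-Het and 0.17 to 0.65 in WT. The B cell level was -0.27 to 0.03 in A-KO:R-Het, -0.72 to -0.46 in A-KO, -0.04 to 0.71 in R-Het and 0.12 to 0.60 in WT. The muscle level varied widely in every genotype, at -2.36 to 1.20 in A-KO:R-Het, -1.19 to 1.15 in A-KO, -2.44 to 2.49 in R-Het and -0.45 to 2.46 in WT. With the muscle level as a covariate, Mpo (-1.35, limma adjusted p = 0.0450) and Ltf (-1.03, adjusted p = 0.0239) passed the threshold in the averaged loss of Axin2, where 0.847% of all genes did. In that fit the median over the 10 genes was -0.83 log2 units, against -0.79 in the main fit. Beyond this covariate, the part of muscle in the granule gene differences was not tested, and neither was that of other lineages.

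**Figure D5:**
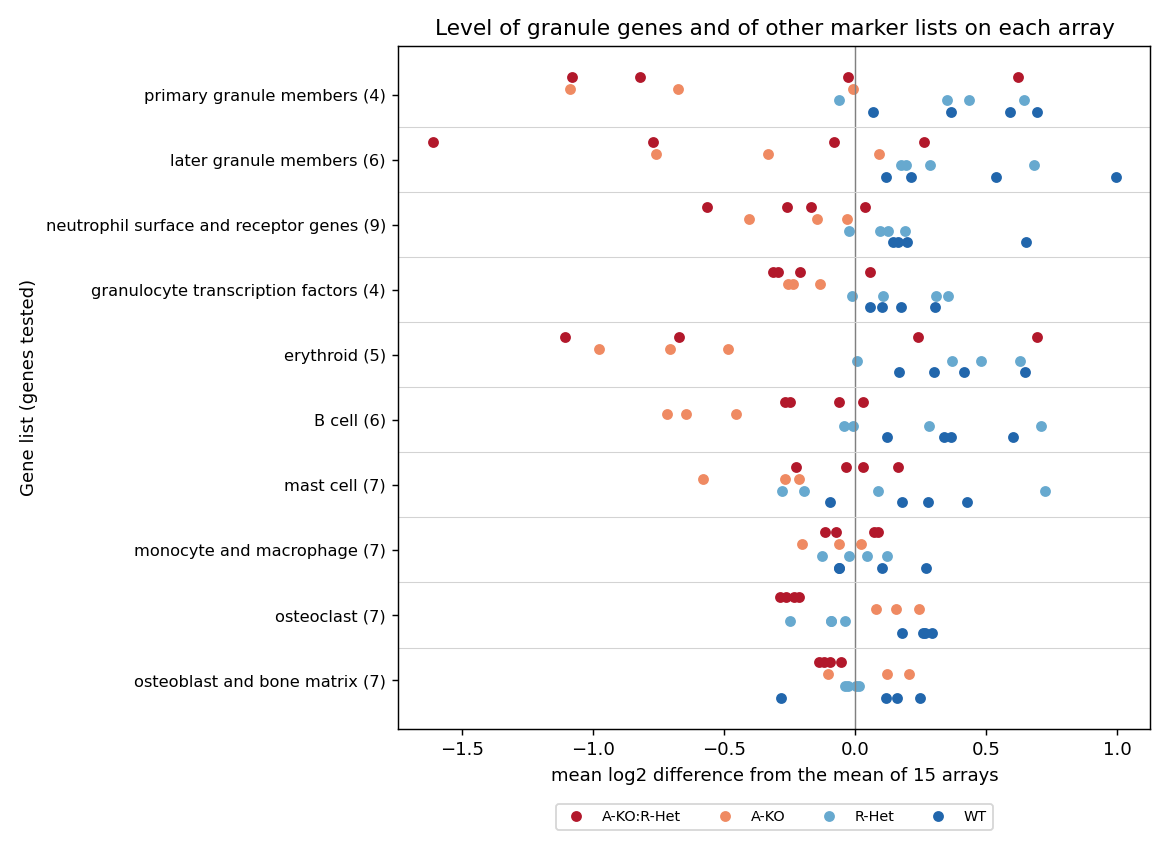
Mean log2 level of marker lists on each of the 15 arrays, relative to the mean of all arrays, by genotype. B cell levels run from -0.72 to -0.46 in A-KO and from 0.12 to 0.60 in WT, while monocyte levels overlap between genotypes.

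Mpo had 3 probes, and they differed in brightness. The main probe exceeded the array median on all 15 arrays. The 2 other probes exceeded it on 5 and 11 arrays, and their averaged Axin2 differences were -0.16 ± 0.10 (limma adjusted p = 0.540) and -0.42 ± 0.17 log2 units (adjusted p = 0.304). In a fit of 13381 probes taken separately, 0 of 12 member probes were called in the averaged loss, where 63 of all probes were. A second Ltf probe was too dim to pass the filter, above the array median on 2 of 15 arrays.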

How the data were processed

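Calvarial RNA (200 ng, TRIzol, biotin-labelled cRNA, per the labels' protocols) was read on Illumina bead arrays. The authors deposited normalised intensity values per probe. How they corrected the background and normalised the arrays is not recorded in the labels or headers. A floor or compression of dim probes can therefore not be checked. A second table, whose 32 columns match no sample label, was not used. Of 25697 probes, 23978 had 1 gene in the platform annotation, 0 several and 1719 none. Values were turned to log2. Probes above the array median on at least 3 of 15 arrays were kept (14212), and the brightest probe stood for each gene (9918 genes). limma 3.58.1 in R 4.3.3 fitted 4 genotype means, with Benjamini-Hochberg adjustment at 0.05 over all genes. The script was tested on simulated data.

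Each mouse is 1 sample, its replicate number follows accession order and pairs nothing, and precision is limited by how many arrays there are. Named genes were all 10 members, called genes of context lists (otherwise the first 2 tested) and the 10 genes most correlated with each set. Members and lists were chosen with earlier results of these data known. The alternatives were offset, filter, probe summary, normalisation, chip, array weights, muscle covariate, moderation, the damaged array and each array left out. Python 3.11.15 with pandas 2.3.3 read the RefSeq promoters.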

Additional observations from a re-analysis of the deposited data

Results flagged for a closer look

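Elane on WT replicate 4, at 7.11 log2 intensity, stood apart from the other 3 WT arrays by more than Dixon's 95% limit for 4 samples. The gap to its nearest neighbour was 0.859 of the group's range. It was the 1 such array among 30 groups of 4 tested, and chance flags about 1 in 20 groups.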

How the results depend on the processing

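No granule gene passed the adjusted threshold in 6 of the 8 comparisons under any alternative run. The exceptions were A-KO:R-Het against WT, with 2 genes called with the muscle covariate (Ltf and Lcn2) and 0 to 1 when single arrays were left out (S100a9 without A-KO:R-Het replicate 4), where 1.61% and 0.68% of all genes were called, and the averaged loss of Axin2, with 2 genes with the muscle covariate (0.847% of all genes) and 0 to 4 when single arrays were left out (4 without A-KO:R-Het replicate 4, against 0.477% of all genes). All 10 differences in the averaged loss stayed negative in all alternatives run. In A-KO against WT, Ngp was 0.0041 log2 units within chip 2 alone, the only reversal among the results listed. The cause of these shifts was not tested. With the damaged array kept, Srgn, Pglyrp1, Irf8, Cxcl12, Prg2 and the 4 B cell genes no longer passed the threshold in the averaged loss, with adjusted p of 0.113 to 0.383, and within either chip alone none of these 9 passed. With the chip as a block, 0 granule genes were called and 8 of these 9 genes passed, Irf8 being the exception (adjusted p = 0.0556). Over the 14 alternatives other than leaving out an array, Irf8 passed in 8 and Prg2 in 10. No paired analysis was possible because the labels give no replicate numbers; those printed follow accession order and only name arrays. Whether the dimmest probes, those of Elane, Prtn3 and Ctsg, are compressed was not tested.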
